A study of Homo sapiens with 2 samples.

Results

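Cells of the MCF10A line that had grown in epidermal growth factor (EGF) for 30 h, the last 15 h of them with a phosphoinositide 3-kinase (PI3K) inhibitor, were set against cells kept in EGF alone for 30 h. They were chosen by their sample tag alone, through the condition name that the deposited annotation gives each tag. There were 880 such cells, 376 in library 1 and 504 in library 2, and 589 EGF-alone cells, 245 and 344, of 4837 annotated cells in all. MCF10A is a line of human breast epithelium that divides without limit but forms no tumours, and it needs EGF to divide. Both groups received EGF at 0 h, and no other agent is named in the labels; the labels name the inhibitor only by its target and give no dose. The study tagged 8 conditions per replicate, pooled them, fixed them in methanol and profiled them as 1 droplet single-cell RNA library. Besides the 2 groups compared here the conditions were 0 h, 15 h and 20 h of EGF, 20 h with the PI3K inhibitor, and 20 h and 30 h with an inhibitor of the kinase MEK, each inhibitor added at 15 h. All cells are of 1 line, and nothing in the labels says that the 2 replicates were separate cultures. The p-values measure only how far differences between conditions vary from 1 library to the other, estimated over all 8 conditions. That spread may be technical.

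PI3K is recruited by activated receptors such as the EGF receptor and makes a membrane lipid that activates the kinase AKT. AKT keeps FOXO transcription factors out of the nucleus and, through the mTORC1 complex, favours protein, lipid and nucleotide synthesis. The EGF receptor also activates the RAS, RAF, MEK and ERK kinases, which act beside PI3K on cyclin D and on entry into the cell cycle.

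The depth was uneven between the groups. Cells with the inhibitor had a median of 11952 and 11650 UMIs (unique molecules) in the 2 libraries, against 16000 and 15371 UMIs in EGF alone. Their summed counts came to 4628345 and 6319978 UMIs with the inhibitor and 3748567 and 5114454 UMIs in EGF alone. The median share of mitochondrial UMIs was 4.64% and 4.68% with the inhibitor and 4.89% and 4.99% in EGF alone. No barcode was shared between the libraries, and the summed log expression of the 2 libraries correlated with r = 0.984 over genes with the inhibitor and r = 0.983 in EGF alone. All 10 mammary epithelial markers were detected, with summed levels of 17410 and 22912 CPM (counts scaled to a common library size) with the inhibitor and 13351 and 14741 CPM in EGF alone. Of 16 markers of blood, endothelial, stromal, liver and red cells, 3 had enough counts to be tested and none passed the test in either direction. Their summed level was 28.6 and 13.7 CPM with the inhibitor and 19.5 and 11.8 CPM in EGF alone, nearly all of it from the stromal proteoglycan DCN and the macrophage marker CD68.

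A smaller share of cells with the inhibitor was called S or G2/M. Each cell was thinned to 6500 UMIs, so that the deeper EGF-alone cells could not gain a phase call from depth, and was called G1, S or G2/M from 43 S and 54 G2/M genes. With the inhibitor, 85.3% and 73.6% of cells were called G1 in the 2 libraries, against 25.1% and 8.0% in EGF alone. The G2/M share was 10.6% and 22.2% with the inhibitor and 53.4% and 80.9% in EGF alone. The S share was 4.02% and 4.21% with the inhibitor and 21.5% and 11.1% in EGF alone. The groups did not overlap for any of the 3 calls. The G1 share was higher with the inhibitor by 60.2 and 65.6 percentage points within the libraries, and without thinning by 61.7 and 64.3 points. With 2 libraries in each group an exact permutation test cannot give a p under 0.333, so none is given. Within 0.05 score units of a border between calls lay 5.46% and 11.1% of the cells with the inhibitor and 14.3% and 8.0% of those in EGF alone, so the call cuts a range and is no cell type. In EGF alone library 2 had more G2/M calls than library 1, by a margin larger than the gap between the libraries with the inhibitor.

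**Figure D1:**
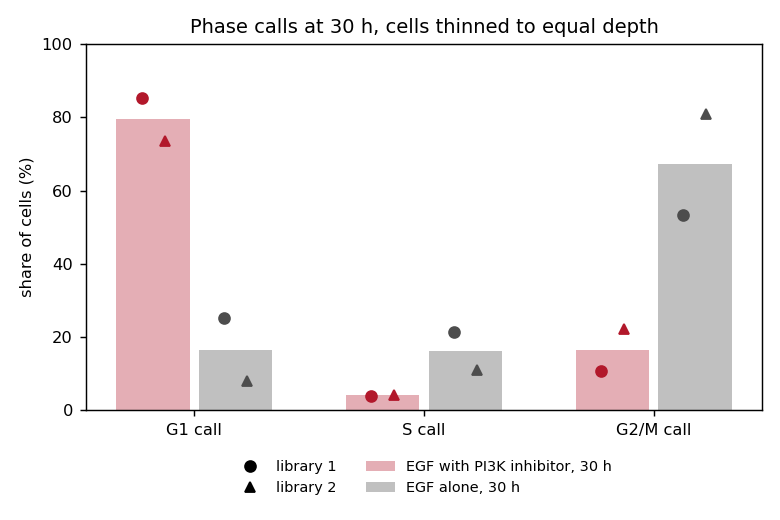
Share of cells in % (vertical axis) called G1, S or G2/M after 30 h of EGF, PI3K inhibitor (red) left of EGF alone (grey). Bars are means over the 2 libraries, circles library 1 and triangles library 2; G1 calls make up 85.3% and 73.6% with the inhibitor and 25.1% and 8.0% in EGF alone.

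Counts were then summed over the cells of each library and condition and tested with edgeR's quasi-likelihood test, with the library as a block. A fold change below is the log2 ratio of the inhibitor over EGF alone ± its SE, levels are CPM after TMM scaling in library 1 and then library 2, and p-values are Benjamini-Hochberg adjusted over 11147 genes, called under 0.05. The test called 4428 genes, which is 39.7% of those tested: 2201 (19.7%) were higher and 2227 (20.0%) lower with the inhibitor. Of the called genes, 4411 had the same sign in both libraries, which is largely built in, since they were called on these same libraries. On library totals in place of TMM scaling, 1268 were higher and 3688 lower, with the median of all genes shifted by -0.24 on the log2 scale. Without the replicate block 2384 were called. So large a share of all genes was called that counts of list members below need a background. For the TMM-scaled 30 h test with the block, over all cells, it is 19.7% higher and 20.0% lower. Counts from other comparisons, and from cells called G1, are to be read against the shares given with them. For 30 h list counts on library totals the background is 1268 genes up and 3688 down. With the block dropped it is 1106 up and 1278 down. Phase shares differed between the groups, so in these sums a change in the number of cells in a phase and a change per cell cannot be told apart. Most genes named below were chosen for a call and a large change. That their groups lie apart in both libraries follows in part from this choice. The share of all genes whose groups lie apart was not counted.

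The 10 largest rises at 20 CPM or more included an immediate early gene, a mitophagy receptor and a laminin chain. RGCC (chr13:41457559-41470882, GRCh38, GENCODE v29), a regulator of the cell cycle, stood at 27.1 and 22.6 CPM with the inhibitor, against 2.11 and 2.54 CPM in EGF alone, a rise of 3.37 ± 0.27 (adjusted p = 4.77e-15). BNIP3L, a mitochondrial receptor for autophagy, stood at 59.2 and 49.6 CPM with the inhibitor, against 7.12 and 4.40 CPM in EGF alone (3.28 ± 0.18, adjusted p = 1.15e-20). EGR1, an immediate early transcription factor at chr5:138465490-138469315, stood at 70.1 and 76.4 CPM with the inhibitor, against 10.8 and 6.93 CPM in EGF alone (3.11 ± 0.17, adjusted p = 2.84e-21). For all 3 genes both libraries with the inhibitor lay above both EGF-alone libraries, which follows in part from choosing large rises. KRT16, a keratin of activated epidermis, rose by 2.67 ± 0.17 and stood at 546 and 569 CPM with the inhibitor, against 74.1 and 101 CPM in EGF alone; LAMB3, the beta chain of laminin-332, rose by 2.45 ± 0.11 and stood at 558 and 594 CPM with the inhibitor, against 97.1 and 113 CPM in EGF alone. The other 5 of the 10 were FAM110C (2.55 ± 0.24), the histone genes HIST1H2AC (2.50 ± 0.23) and HIST3H2A (2.44 ± 0.19), the kinesin light chain KLC3 (2.47 ± 0.18) and the alpha-tubulin TUBA1A (2.44 ± 0.23). KRT16, TUBA1A and the histone genes belong to families with near-identical copies, among which the counting could have split reads, so their values are uncertain.

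Of the 10 largest falls, 4 (LMNB1, CENPA, KIF2C and CDCA3) belonged to the list of mitotic structure genes and 2 (AURKA and PLK1) to that of mitotic kinases. ACOX2, a peroxisomal enzyme of bile acid and branched-chain fatty acid breakdown, fell furthest among the genes at 20 CPM or more in either group, with 1.99 and 2.11 CPM with the inhibitor, against 24.3 and 17.6 CPM in EGF alone (-3.28 ± 0.29, adjusted p = 1.87e-13). It was followed by FAM83D (-3.16), a spindle protein, LMNB1 (-3.14), the B-type lamin of the nuclear envelope, CENPA (-3.05), the histone of centromeres, DEPDC1 (-3.04), KIF2C (-2.99), a kinesin that depolymerises microtubules, AURKA (-2.98), DEPDC1B (-2.96), PLK1 (-2.93) and CDCA3 (-2.90). For each of these 10 genes both libraries with the inhibitor were below both EGF-alone libraries, which follows in part from choosing large falls.

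**Figure D2:**
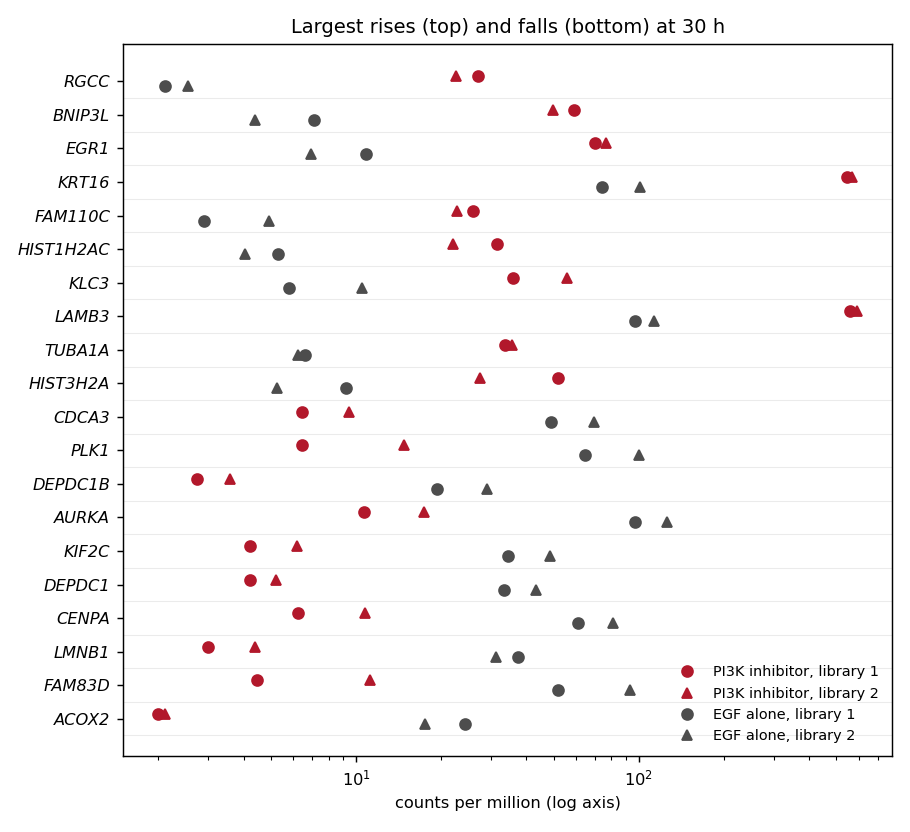
Levels in CPM (horizontal, log axis) of the 10 genes with the largest rises (top) and the 10 with the largest falls (bottom), PI3K inhibitor in red above EGF alone in grey for each gene, circles library 1 and triangles library 2. The genes were chosen for large called changes of the same sign in both libraries, so the gap between the groups follows in part from the choice. RGCC lies at 27.1 and 22.6 CPM with the inhibitor and at 2.11 and 2.54 CPM in EGF alone.

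All 10 mitotic kinases and all 41 mitotic cyclins, motors and structural genes of the lists fell, with list medians of -2.32 and -2.42 against 0.01 over all genes tested. CCNB1, the cyclin that partners CDK1 at entry into mitosis, stood at 30.1 and 62.8 CPM with the inhibitor, against 216 and 375 CPM in EGF alone (-2.69 ± 0.12, adjusted p = 1.10e-23). PLK1, a kinase of spindle assembly and mitotic exit, stood at 6.46 and 14.8 CPM with the inhibitor, against 64.4 and 100.5 CPM in EGF alone (-2.93 ± 0.18), and AURKA, the centrosomal kinase, at 10.7 and 17.4 CPM with the inhibitor, against 96.8 and 126 CPM in EGF alone (-2.98 ± 0.14). The values of library 2 were higher than those of library 1 for these 3 genes in both groups. MKI67, the proliferation marker, fell by 2.42 on the log2 scale, TOP2A, which untangles DNA, by 2.57, CDC20, an activator of the anaphase-promoting complex, by 2.70, and CCNA2, the cyclin of S and G2, by 2.68. KIF20A, a kinesin of cytokinesis, was lowest of the list at -3.49 and CDC25B, a phosphatase that activates CDK1, moved least at -0.43. Since the G2/M calls use many of these genes, the phase shares and these falls are 2 views of the same counts.

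Promoters were read for the genes the results turn on, since those of mitotic genes are known for a pair of short elements, the cell cycle homology region (CHR) and the CCAAT box. The RefSeq table for GRCh38.p14, which gives 250 bases before to 50 after each start, matched 116 of the 146 genes chosen for naming. The letters TTTGAA (CHR), on either strand, were found in 24 of the 36 matched promoters of mitotic cyclins, motors and structural genes (66.7%) and in 3 of 7 of mitotic kinases, against 9.41% of the 8727 matched promoters of all genes tested. CCAAT, on either strand, was found in 24 of those 36 and in 5 of the 7, against 37.6% of all. The promoters of CENPA (chr2:26785806-26786105, plus strand) and PLK1 (chr16:23678639-23678938, plus strand) are shown because both genes are among the 10 largest falls and both hold the 2 elements, in capitals below. With the start site as position 0, TTTGAA begins at -18 in CENPA and at -29 in PLK1, and the CCAAT boxes begin at -205 and -130 in CENPA, where they read ATTGG on this strand, and at -73 in PLK1.
CENPA: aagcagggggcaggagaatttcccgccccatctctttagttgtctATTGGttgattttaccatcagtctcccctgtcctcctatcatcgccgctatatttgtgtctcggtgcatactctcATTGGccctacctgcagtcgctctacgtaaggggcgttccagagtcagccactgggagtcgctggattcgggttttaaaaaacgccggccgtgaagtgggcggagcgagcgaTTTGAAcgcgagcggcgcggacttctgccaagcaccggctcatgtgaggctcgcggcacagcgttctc
PLK1: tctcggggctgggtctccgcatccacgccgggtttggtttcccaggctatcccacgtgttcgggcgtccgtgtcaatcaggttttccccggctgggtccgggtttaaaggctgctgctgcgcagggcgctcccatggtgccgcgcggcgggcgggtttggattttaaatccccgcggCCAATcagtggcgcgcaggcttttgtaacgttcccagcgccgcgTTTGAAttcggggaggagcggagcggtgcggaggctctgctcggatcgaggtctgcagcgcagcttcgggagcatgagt

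Genes of DNA replication fell with near uniformity but by less. Of 17 genes of licensing and initiation 16 fell, with a list median of -1.27, and of 34 genes of DNA synthesis 31 fell, with a median of -1.20; none rose. MCM6, a subunit of the replicative helicase, stood at 4.23 and 5.20 CPM with the inhibitor, against 30.1 and 16.2 CPM in EGF alone (-2.17 ± 0.24, adjusted p = 1.02e-10). MCM10 fell by 2.30 on the log2 scale, GINS1 by 1.96 and CDC45 by 1.94; all 3 act with that helicase at origins. TYMS, which makes thymidylate, stood at 22.1 and 28.5 CPM with the inhibitor, against 130.1 and 89.1 CPM in EGF alone (-2.05 ± 0.13), and UHRF1, which directs maintenance methylation, at 7.46 and 8.29 CPM with the inhibitor, against 38.8 and 36.2 CPM in EGF alone (-2.23 ± 0.18). In TYMS and MCM6 library 1 was the higher of the EGF-alone libraries, the reverse of the mitotic genes above. FEN1, which trims Okazaki fragments, and POLE2, a polymerase subunit, fell by 2.02 and 2.27. CDT1, the licensing factor, was the member that did not pass the test (0.12 ± 0.16, adjusted p = 0.586).

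The E2F letters TTTCCCGC or TTTGGCGC, on either strand, were found in 7 of 13 matched promoters of licensing genes that fell and in 10 of 29 of DNA synthesis genes that fell, against 4.03% of promoters of all genes tested. E2F factors switch on genes of S phase. The promoter of MCM6 (chr2:135876394-135876693, minus strand) is shown because it holds TTTGGCGC 2 times, beginning at -152 and at -90, in capitals.
MCM6: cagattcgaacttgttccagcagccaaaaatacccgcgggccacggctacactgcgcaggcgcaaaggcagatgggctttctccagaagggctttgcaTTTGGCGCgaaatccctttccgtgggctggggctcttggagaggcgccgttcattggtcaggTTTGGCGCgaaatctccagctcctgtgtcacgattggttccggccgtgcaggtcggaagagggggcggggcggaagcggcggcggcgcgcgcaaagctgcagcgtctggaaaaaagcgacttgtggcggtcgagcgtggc

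Among 20 G1 cyclins, CDKs, their inhibitors, RB and E2F genes, 9 fell and 1 rose. CCND1, cyclin D1 (chr11:69641087-69654474), stood at 105 and 117 CPM with the inhibitor, against 90.5 and 117 CPM in EGF alone, with overlapping groups and a fold change of 0.10 ± 0.11 that did not pass the test (adjusted p = 0.514). On library totals in place of TMM scaling its fold change was -0.14. E2F1 fell by 1.38 on the log2 scale, CCNE2, cyclin E2, by 1.62, and CDK2, the kinase it activates, by 1.42. CDKN2C, p18, an inhibitor of CDK4 and CDK6, also fell, to 4.48 and 5.69 CPM with the inhibitor against 18.5 and 19.8 CPM in EGF alone. The gene that rose was CDKN1C, the CDK inhibitor p57, at 23.6 and 20.7 CPM with the inhibitor, against 10.8 and 6.76 CPM in EGF alone (1.38 ± 0.21, adjusted p = 6.22e-07). CDKN1B, p27, fell (-0.56 ± 0.21, adjusted p = 0.0297), and CDKN1A, p21, had a fold change of 0.28 ± 0.13 that did not pass (adjusted p = 0.0911). The fall of CDKN1B was not called without the replicate block, by DESeq2 or without the cells of highest depth. The CDK inhibitor genes thus did not move together.

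The same test was run on cells called G1 only, which holds the phase call fixed but leaves just 56 and 26 EGF-alone cells, against 297 and 332 with the inhibitor. It called 1033 of 8538 genes (12.1%), 505 of them higher (5.91%) and 528 lower (6.18%). Dropping the replicate block left 278 calls. Of the 3823 genes called over all cells that could be tested here, 3400 kept their sign and 897 were called again with the same sign. Cells called G1 are part of the cells tested before, 297 of 348 and 332 of 451 thinned cells with the inhibitor. That agreement is thus partly built in and is no independent repeat. The mitotic structure list, many of whose genes the calls use, so that cells called G1 are low in them in both groups, had a median of -0.24 among 29 members tested, and the DNA synthesis list -0.26 among 26. The sterol, basal and hemidesmosome, and receptor lists, described below, had medians of -0.88, 0.45 and 0.72. Outside the cell type marker lists, 3 list medians stayed within the spread of the libraries, 20 moved beyond it and 6 changed sign. Numbers higher and lower were 4 and 1 of 15 early response genes, and 1 and 0 of 5 EGF receptor ligands. They were 1 and 4 of 25 ribosome biogenesis genes and 1 and 2 of 14 chaperones. Of 77 ribosomal protein genes 32 were higher and 0 lower.

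Of 22 FOXO-induced genes tested 12 rose (54.5%, against 19.7% of all genes) and 1 fell, with a median of 0.54. TXNIP, which binds thioredoxin and limits glucose uptake, stood at 399 and 238 CPM with the inhibitor, against 86.5 and 61.9 CPM in EGF alone (2.07 ± 0.11, adjusted p = 6.31e-21). Library 1 was the higher in both groups. CCNG2, an atypical cyclin linked to arrest, stood at 34.1 and 30.4 CPM with the inhibitor, against 14.2 and 12.5 CPM in EGF alone (1.27 ± 0.16), CITED2, a transcriptional coregulator, at 63.2 and 75.8 CPM with the inhibitor, against 24.8 and 27.9 CPM in EGF alone (1.40 ± 0.14), and YPEL3, a growth suppressor, at 16.2 and 18.7 CPM with the inhibitor, against 5.01 and 5.41 CPM in EGF alone (1.74 ± 0.23). In each of the 3 the groups did not overlap, which follows in part from choosing called genes with large changes. PINK1, the mitophagy kinase (1.14), KLF6 (0.78), RICTOR, a subunit of mTORC2 (0.74), FOXO3 (0.64) and FOXO1 itself (0.49 ± 0.13, adjusted p = 0.00169) rose too. The member that fell was CDKN1B, whose call did not hold in every setting, as given above. BCL6 (-0.50), SESN1 (-0.44), GADD45A (0.28) and BCL2L11 (0.44) did not pass the test. In cells called G1, 3 of 21 members rose and 2 fell (background 5.91% higher and 6.18% lower), and TXNIP was again higher (1.44 ± 0.17, adjusted p = 6.70e-09).

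The FOXO letters TGTTTAC, on either strand, were found in 3 of 11 matched promoters of the members that rose, against 2.27% of promoters of all genes tested. The promoter of TXNIP (chr1:145996530-145996829, minus strand) is shown because this gene rose most in the list; its match begins at -124 and reads GTAAACA on this strand, in capitals.
TXNIP: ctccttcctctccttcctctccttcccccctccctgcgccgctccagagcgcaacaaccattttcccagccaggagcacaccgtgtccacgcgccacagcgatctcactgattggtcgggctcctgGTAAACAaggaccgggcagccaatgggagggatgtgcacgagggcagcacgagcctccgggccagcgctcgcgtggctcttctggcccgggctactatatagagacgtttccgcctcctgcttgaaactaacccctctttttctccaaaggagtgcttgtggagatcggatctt

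Receptors and adaptors that act upstream of PI3K rose in 5 of 10 cases, with a median of 0.79. EGFR, the receptor of the ligand used, stood at 269 and 277 CPM with the inhibitor, against 110.0 and 134 CPM in EGF alone (1.16 ± 0.0912, adjusted p = 2.73e-15), and IRS2, an adaptor of insulin receptors, at 43.8 and 45 CPM with the inhibitor, against 16.1 and 19.6 CPM in EGF alone (1.30 ± 0.16). Both were higher in each library, and both were also called higher in cells called G1, at 1.11 ± 0.14 and 1.51 ± 0.40 (adjusted p = 1.13e-07 and 0.00679). INSR, the insulin receptor, rose by 1.47, ERBB2 by 0.87 and IRS1 by 0.76. PIK3R1, the regulatory subunit of PI3K itself, was the member that fell, with 88.8 and 66 CPM with the inhibitor, against 116 and 105 CPM in EGF alone (-0.54 ± 0.11). ERBB3, a receptor known for its rise when PI3K is blocked in other epithelial cells, had a fold change of -0.50 and did not pass.

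Transcripts downstream of ERK did not fall as a group. Of 15 MEK/ERK output genes 7 rose and 1 fell, with a median of 0.47. DUSP6, a phosphatase that switches ERK off and is made in response to it, stood at 44.3 and 41.1 CPM with the inhibitor, against 22.2 and 23 CPM in EGF alone (0.90 ± 0.14, adjusted p = 8.90e-07). PHLDA1 stood at 89.3 and 71.5 CPM with the inhibitor, against 45.6 and 34.5 CPM in EGF alone (1.01 ± 0.13), and DUSP5, a nuclear ERK phosphatase, rose by 1.14 ± 0.24. ETV4, a transcription factor of the PEA3 group, was the one that fell (-0.95 ± 0.32, adjusted p = 0.0142). No member of the list was called lower without the replicate block, on thinned cells or by DESeq2. SPRY2 (0.46), SPRY4 (-0.26) and ETV5 (-0.43) did not pass. Of 16 early response genes 13 rose and 1 fell, with a median of 0.86. JUNB stood at 209.8 and 251 CPM with the inhibitor, against 60.7 and 103 CPM in EGF alone (1.5 ± 0.11), FOS at 439.6 and 495 CPM with the inhibitor, against 231 and 327 CPM in EGF alone (0.77 ± 0.12), and MYC at 282 and 324 CPM with the inhibitor, against 186 and 211 CPM in EGF alone (0.61 ± 0.11, adjusted p = 6.90e-06). KLF2 (1.68) and MAFF (1.05) rose with them. FOSL1, a later member of the FOS family, fell (-0.46 ± 0.16, adjusted p = 0.0154). Of 5 EGF receptor ligands tested 4 rose. HBEGF stood at 12.7 and 22.8 CPM with the inhibitor, against 1.58 and 6.26 CPM in EGF alone (2.13 ± 0.26, adjusted p = 2.91e-09), EPGN rose by 0.79, EREG by 0.74 and AREG by 0.41; TGFA did not pass (-0.04). Without the replicate block 5 of the 16 early response genes were called higher.

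The groups of genes for ribosome production moved in opposite directions. Of 25 genes of ribosome biogenesis 18 fell and 1, NPM1, rose, with a median of -0.43. LYAR stood at 86.8 and 77.6 CPM with the inhibitor, against 182 and 167 CPM in EGF alone (-1.09 ± 0.11, adjusted p = 3.64e-12), NOP16 at 83.3 and 104 CPM with the inhibitor, against 172 and 213 CPM in EGF alone (-1.04 ± 0.0991) and NOLC1, a nucleolar assembly factor, at 36.1 and 42.9 CPM with the inhibitor, against 72.3 and 77.3 CPM in EGF alone (-0.91 ± 0.12). In all 3 both libraries with the inhibitor were lower, which follows in part from choosing large falls. By contrast all 16 translation factors and related genes with 5 prime terminal oligopyrimidine (TOP) tracts, the sequence through which mTORC1 governs translation, rose, with a median of 0.56. EEF2, the elongation factor of translocation, stood at 1538 and 1385 CPM with the inhibitor, against 723 and 603 CPM in EGF alone (1.15 ± 0.0923, adjusted p = 5.82e-15), and EIF4A2, an RNA helicase, at 215 and 205 CPM with the inhibitor, against 66 and 78.5 CPM in EGF alone (1.52 ± 0.11). Of 77 cytosolic ribosomal protein genes, a list added after the values were seen, 76 rose, with a median of 0.53; RPL35 did not pass (0.13, adjusted p = 0.243). Their share of all UMIs in thinned cells was 33.4% and 28.8% with the inhibitor and 27.8% and 21.9% in EGF alone, so the groups did not overlap, though the 2 libraries of a group differed by about as much as the groups did. On library totals 69 of the 77 and 13 of the 16 were called higher, and without the replicate block 0 of the 77 and 4 of the 16. These genes have many near-identical pseudogenes, which the counting could have given some of their reads.

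Genes of cholesterol synthesis and uptake fell: 18 of 22, with none higher and a median of -0.94. HMGCS1, which makes the precursor of mevalonate (chr5:43289395-43313512), stood at 15.4 and 23.6 CPM with the inhibitor, against 62 and 83.2 CPM in EGF alone (-1.90 ± 0.14, adjusted p = 6.74e-17). INSIG1, which holds the sterol factors SREBP in the endoplasmic reticulum, stood at 7.71 and 9.76 CPM with the inhibitor, against 30.9 and 26 CPM in EGF alone (-1.66 ± 0.19), and FDPS, which makes farnesyl diphosphate, at 149.7 and 182 CPM with the inhibitor, against 444 and 483 CPM in EGF alone (-1.49 ± 0.0911). Both libraries with the inhibitor were below both EGF-alone libraries in all 3, which follows in part from choosing large falls. HSD17B7 fell by 1.70 on the log2 scale, STARD4, a sterol carrier, by 1.52 and DHCR7, of the last step of cholesterol synthesis, by 1.45. LSS (-0.44), SREBF2 (-0.17), PMVK (-0.02) and CYP51A1 (0.03) did not pass. In cells called G1 the list had 15 of 22 members lower and none higher (background 6.18% lower), HMGCS1 among them at -2.32 ± 0.23 (adjusted p = 9.44e-11).

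Fatty acid synthesis moved the same way, with 7 of 11 genes lower and 1 higher. ELOVL6, which lengthens palmitate, stood at 11.2 and 10.7 CPM with the inhibitor, against 45.9 and 44.3 CPM in EGF alone (-2.05 ± 0.16, adjusted p = 1.23e-15), and SCD, which desaturates stearate, at 22.6 and 18.4 CPM with the inhibitor, against 60.9 and 57.3 CPM in EGF alone (-1.55 ± 0.14). FADS1 fell by 1.05, SREBF1, which encodes the factor of this pathway, by 0.99, ACLY by 0.91 and FASN by 0.55 on the log2 scale; ACSL3 rose by 0.25. The letters of a sterol response element, TCACNCCAC, on either strand, were found in 0 of 13 matched promoters of the sterol genes that fell, against 1.04% of promoters of all genes tested, which says only that these letters are not in those windows. CCAAT, on either strand, was found in 12 of the 13, against 37.6%. The promoter of HMGCS1 (chr5:43313363-43313662, minus strand) is shown because this gene fell most in the list; its CCAAT boxes begin at -155 and -100 and read ATTGG on this strand, in capitals.
HMGCS1: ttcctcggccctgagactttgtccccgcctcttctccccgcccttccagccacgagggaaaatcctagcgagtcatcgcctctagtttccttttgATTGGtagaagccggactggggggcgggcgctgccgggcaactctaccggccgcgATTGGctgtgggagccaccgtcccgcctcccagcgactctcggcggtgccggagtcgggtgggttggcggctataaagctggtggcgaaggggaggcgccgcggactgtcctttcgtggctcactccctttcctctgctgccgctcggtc

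Glycolysis genes fell in 9 of 16 cases and rose in 2, with a median of -0.44. PGAM1 stood at 125 and 166 CPM with the inhibitor, against 291 and 292 CPM in EGF alone (-0.99 ± 0.0959), PGK1 at 133 and 142 CPM with the inhibitor, against 258 and 236 CPM in EGF alone (-0.84 ± 0.093) and LDHA, which makes lactate, at 1149.9 and 1403 CPM with the inhibitor, against 1988 and 1933 CPM in EGF alone (-0.62 ± 0.10, adjusted p = 1.28e-06). In each both libraries with the inhibitor were lower, which follows in part from choosing called genes. GAPDH (0.33) and PFKP (0.41) were the 2 that rose, and neither was called higher on library totals, where 0 of the 16 rose. Of 18 genes of the pentose phosphate and nucleotide pathways 9 fell and 1 rose: CTPS1, of CTP synthesis, fell by 0.87 and UMPS, of pyrimidine synthesis, by 0.84, while IMPDH2, of guanine nucleotide synthesis, rose by 0.77. Of 18 genes of the ATF4 amino acid response 6 fell and 2 rose. ATF4 itself stood at 131 and 127 CPM with the inhibitor, against 39.8 and 51.1 CPM in EGF alone (1.47 ± 0.13, adjusted p = 4.21e-14), yet PSAT1, of serine synthesis, stood at 11.9 and 16.1 CPM with the inhibitor, against 56.2 and 44.5 CPM in EGF alone (-1.78 ± 0.16) and TRIB3 fell by 0.91. ASNS (-0.12) and SLC7A11 (0.04), other genes of that response, did not pass.

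Of 26 lysosome and autophagy genes 8 rose and 3 fell, with a median of 0.25. On library totals 7 were higher and 7 lower, with a median of 0.01, and in cells called G1 the median was -0.13, with 4 of 21 higher and 1 lower. CTSB, the protease cathepsin B, stood at 465 and 498 CPM with the inhibitor, against 129.6 and 155 CPM in EGF alone (1.76 ± 0.0957, adjusted p = 3.31e-21). The autophagy genes SQSTM1, MAP1LC3B, WIPI1 and ULK1 rose by 1.00, 1.06, 1.70 and 1.72, the last at under 6 CPM in every library. GLA, a lysosomal galactosidase, fell (-1.35 ± 0.15), and LAMP1 (-0.11), CTSD (0.17) and TFEB (0.18) did not pass, so most lysosomal genes were not called. Of 9 genes of hypoxia type 8 rose and none fell, with a median of 0.87: after BNIP3L came NDRG1 at 87.8 and 98.4 CPM with the inhibitor, against 34.8 and 40.8 CPM in EGF alone (1.29 ± 0.12), then KDM3A (1.06), ADM (0.97) and VEGFA (0.68). The glycolysis genes PGK1 and LDHA, which hypoxia also induces, fell, as given above. Chaperones fell in 8 of 14 cases and rose in 1. HSPE1, the mitochondrial cochaperonin, stood at 470.1 and 457 CPM with the inhibitor, against 1362 and 1204 CPM in EGF alone (-1.46 ± 0.0945, adjusted p = 1.83e-18), and HSP90AA1, the inducible HSP90, at 545 and 605 CPM with the inhibitor, against 1337 and 1293 CPM in EGF alone (-1.19 ± 0.10). HSPA8 (0.11) and HSP90AB1 (-0.19) did not pass. Of 13 mitochondrially encoded transcripts 4 rose and 1 fell, with a median of 0.02, and on library totals 1 was higher and 6 lower.

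Genes of the hemidesmosome, the junction that ties basal epithelial cells to the basement membrane, rose. Of 16 basal and hemidesmosome genes 12 rose and 2 fell, with a median of 0.53. Besides LAMB3, the laminin alpha chain LAMA3 rose and stood at 170.1 and 145 CPM with the inhibitor, against 44.3 and 62.4 CPM in EGF alone (1.52 ± 0.12). ITGB4, the integrin beta 4 chain that binds laminin-332, stood at 598 and 507 CPM with the inhibitor, against 149.9 and 139.5 CPM in EGF alone (1.92 ± 0.0907, adjusted p = 3.48e-23), and PLEC, plectin, which links that integrin to keratin filaments, at 492 and 435 CPM with the inhibitor, against 174 and 177 CPM in EGF alone (1.40 ± 0.091). ITGA3 rose by 1.06 and COL17A1 by 0.62. ITGA6, the partner of ITGB4, did not pass (-0.06 ± 0.0989, adjusted p = 0.661). KRT17 stood at 4444 and 8595 CPM with the inhibitor, against 1230.0 and 2645 CPM in EGF alone (1.77 ± 0.12), with library 2 above library 1 in both groups. KRT5 and KRT15, other basal keratins, fell by 0.38 and 0.87, and TP63, a factor of basal identity, did not pass (0.05). In cells called G1, 9 of 16 members were higher (background 5.91%), ITGB4 at 2.14 ± 0.15 and LAMB3 at 1.51 ± 0.15. On library totals 9 of the 16 were higher and 3 lower.

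Of 8 luminal genes 5 rose and 1 fell: KRT8 stood at 84 and 51.5 CPM with the inhibitor, against 31.9 and 24.7 CPM in EGF alone (1.24 ± 0.16), CD24 rose by 1.17, and MUC1 fell to 19.9 and 21.6 CPM with the inhibitor, against 43.5 and 40.2 CPM in EGF alone. Of 12 YAP/TEAD targets 6 rose and 1 fell. AXL, a receptor kinase, stood at 34.6 and 27.2 CPM with the inhibitor, against 9.76 and 11.8 CPM in EGF alone (1.45 ± 0.18), and CTGF, a matricellular protein gene, at 31.8 and 57.9 CPM with the inhibitor, against 10.0 and 24.4 CPM in EGF alone (1.38 ± 0.17). In CTGF library 2 was the higher in both groups. Of 20 squamous differentiation genes 4 rose and 4 fell, shares of 20.0% each that are near the background. They included KRT16 on the rising side and S100A8 (-2.07 ± 0.18) and S100A9 (-1.87 ± 0.19), the calprotectin subunits, on the falling side. Of 18 tested in cells called G1, 1 was higher and 6 were lower, against 5.91% and 6.18% of all genes, with a median of -0.60. Of 11 mesenchymal and matrix genes 2 rose and 3 fell; COL4A1 fell by 1.88 and FN1 rose by 1.31.

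Counts of p53 targets were also near the background, with 4 of 20 higher and 6 lower. GDF15, a stress cytokine, stood at 2.49 and 2.44 CPM with the inhibitor, against 11.9 and 7.61 CPM in EGF alone (-1.91 ± 0.32), TIGAR, which diverts glycolysis, at 6.71 and 8.29 CPM with the inhibitor, against 25.1 and 24.7 CPM in EGF alone (-1.71 ± 0.20), and PLK3 at 24.4 and 39.4 CPM with the inhibitor, against 10.0 and 21.6 CPM in EGF alone (1.00 ± 0.17). MDM2, the ligase that degrades p53, did not pass (adjusted p = 0.991). In cells called G1 the list read otherwise: 11 of 20 members were lower and none higher, against 6.18% and 5.91% of all genes, with a median of -1.02. MDM2 was among them (-1.16 ± 0.19, adjusted p = 1.47e-05), as were CDKN1A (-0.72 ± 0.20, adjusted p = 0.011) and BAX (-1.42 ± 0.13, adjusted p = 1.73e-11). That reading rests on 56 and 26 EGF-alone cells. Of 13 interferon genes 4 fell and 1 rose, IRF7 (1.63). Of 12 BCL2 family genes 3 rose, HRK (1.84), MCL1 (0.45) and BCL2L1 (0.37), and 4 fell, BCL2 (-1.75), PMAIP1 (-1.15), BID (-0.73) and BAX (-0.55); BCL2L11, the FOXO target BIM, did not pass.

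**Figure D3:**
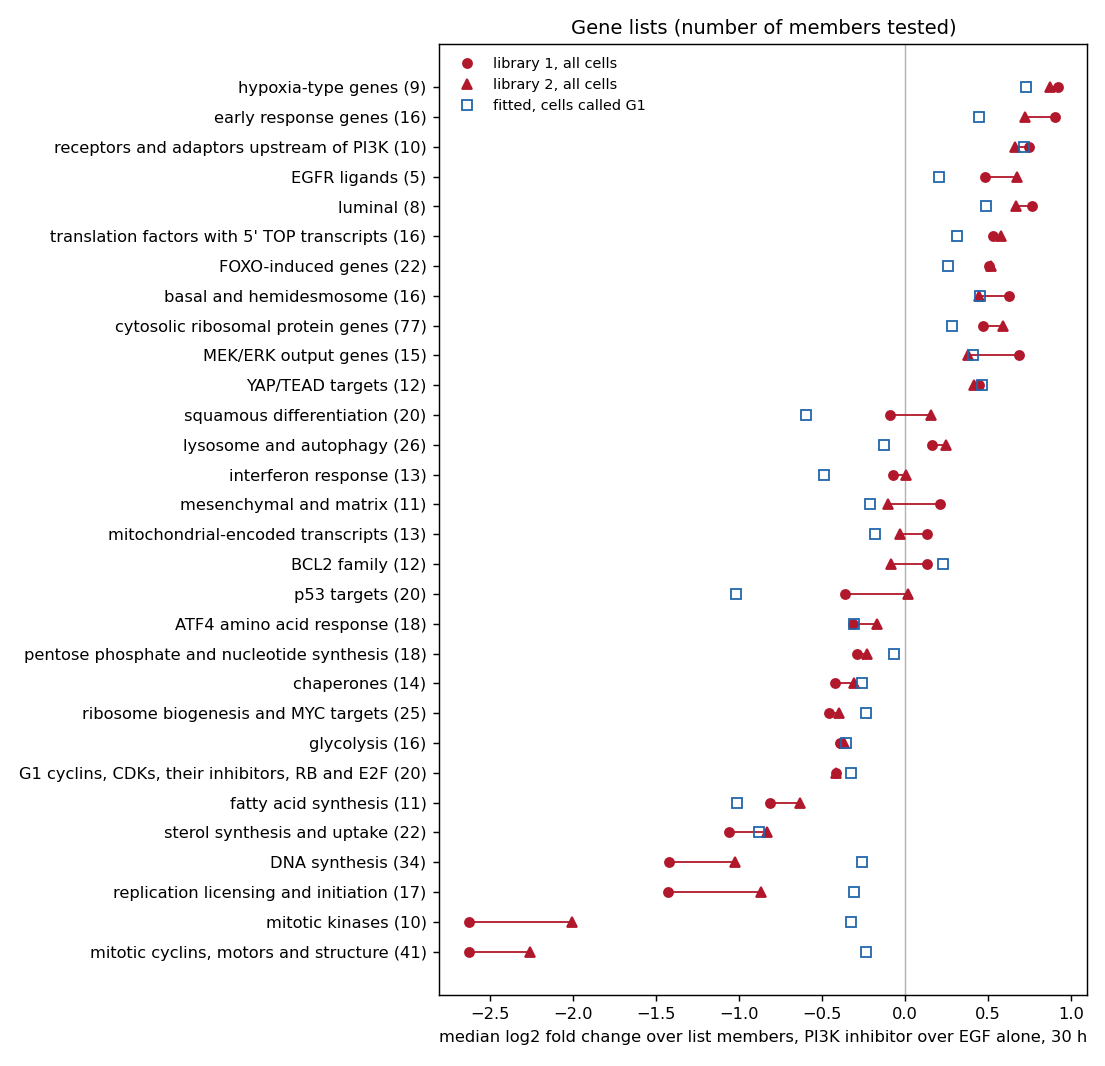
Median log2 fold change over the tested members of each gene list (horizontal axis; number tested in brackets), PI3K inhibitor over EGF alone at 30 h, as circles for library 1, triangles for library 2 and open blue squares for the fit to cells called G1. The mitotic lists lie lowest over all cells, at -2.32 and -2.42 in the fit, and at -0.33 and -0.24 in cells called G1, a call that itself selects cells low in these genes; the sterol list lies at -0.94 over all cells and -0.88 in cells called G1.

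The spread over cells was examined in cells thinned to 6500 UMIs. The 51 mitotic genes of both lists summed to a median of 3 and 5 UMIs per cell with the inhibitor, against 34 and 53 UMIs in EGF alone. The 90th percentile was 19.3 and 30.0 UMIs with the inhibitor and 67.8 and 85.6 UMIs in EGF alone, so even the 90th percentile with the inhibitor lay below the EGF-alone median. The 22 sterol genes were lower over the whole range: the 10th percentile, median and 90th percentile were 2, 5 and 10 UMIs in library 1 and 4, 7 and 13 UMIs in library 2 with the inhibitor, and 7, 13 and 22 UMIs and 10, 18 and 26 UMIs in EGF alone. The median with the inhibitor was below the 10th percentile of EGF alone in both libraries. In cells called G1 the sterol medians were 5 and 7 UMIs with the inhibitor and 10 and 16 UMIs in EGF alone. The 26 FOXO-induced genes had medians of 6 and 7 UMIs with the inhibitor and 4 and 5 UMIs in EGF alone, with overlapping ranges. Among cells called G1 the FOXO-induced genes averaged 7.31 and 7.88 UMIs per cell with the inhibitor and 5.16 and 7.73 UMIs in EGF alone, so the libraries differed in the size of the gap and it was small in library 2. The 16 basal and hemidesmosome genes had medians of 105 and 150 UMIs with the inhibitor and 88 and 109 UMIs in EGF alone, but of 109 and 164 UMIs with the inhibitor and 107.5 and 165.5 UMIs in EGF alone among cells called G1. Keratin genes had the highest levels in that list, so its sum says little of the laminin and integrin genes.

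The effect of the inhibitor at 30 h, after 15 h of exposure, was then set against its effect at 20 h, after 5 h, each against EGF alone of the same time. The test of the difference between the effects called 630 of 11147 genes (5.65%), 268 in which it was more positive at 30 h (2.4%) and 362 in which it was more negative (3.25%). On library totals 195 were more positive and 591 more negative. At 20 h by itself 2607 genes (23.4%) were called, 11.4% higher and 11.9% lower. The fall of mitotic genes was deeper at 30 h for 31 of the 41 in the mitotic structure list, whose median effect was -2.42 at 30 h and -0.97 at 20 h. CCNB1 had an effect of -2.69 at 30 h and -0.70 at 20 h, a difference of -1.99 ± 0.21 (adjusted p = 1.90e-09). With the inhibitor CCNB1 stood at 30.1 and 62.8 CPM at 30 h and 25.6 and 59.9 CPM at 20 h, and in EGF alone at 216 and 375 CPM at 30 h and 52.2 and 77.4 CPM at 20 h. The 2 times overlapped with the inhibitor and were apart in EGF alone. The other 4 largest negative differences were in HMGN5, a nucleosome-binding protein gene (-2.24 ± 0.41), NEK2, a centrosomal kinase (-2.10 ± 0.33), NMU, a neuropeptide gene (-1.98 ± 0.34), and DLGAP5, a spindle gene (-1.95 ± 0.37).

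Of the 16 basal and hemidesmosome genes 9 had a more positive effect at 30 h, and none a more negative one. LAMB3 had an effect of 2.45 at 30 h and 1.11 at 20 h, a difference of 1.34 ± 0.15 (adjusted p = 1.15e-08), and ITGB4 of 1.92 and 0.67, a difference of 1.25 ± 0.13. The 5 largest positive differences were in KRT16 (1.87 ± 0.25), KLC3 (1.59 ± 0.29), FADS3, a desaturase-family gene (1.51 ± 0.22), CCND1 (1.5 ± 0.17) and RBM12 (1.5 ± 0.27). For CCND1 and RBM12 the effect was negative at 20 h, at -1.40 and -1.23, and did not pass the test at 30 h. CCND1 stood at 54 and 57.4 CPM with the inhibitor at 20 h, against 129 and 173 CPM in EGF alone at 20 h. Of 22 sterol genes 9 had a more negative effect at 30 h, HSD17B7 most (-1.71 ± 0.35); HMGCS1 did not pass (-0.66 ± 0.24, adjusted p = 0.0998). Of 22 FOXO-induced genes 1 passed, and TXNIP, at 2.07 at 30 h and 2.34 at 20 h, did not (-0.28 ± 0.17, adjusted p = 0.384). Without the replicate block the test of the difference called 6 genes in place of 630, and 1034 in place of 2105 at an unadjusted p under 0.05.

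**Figure D4:**
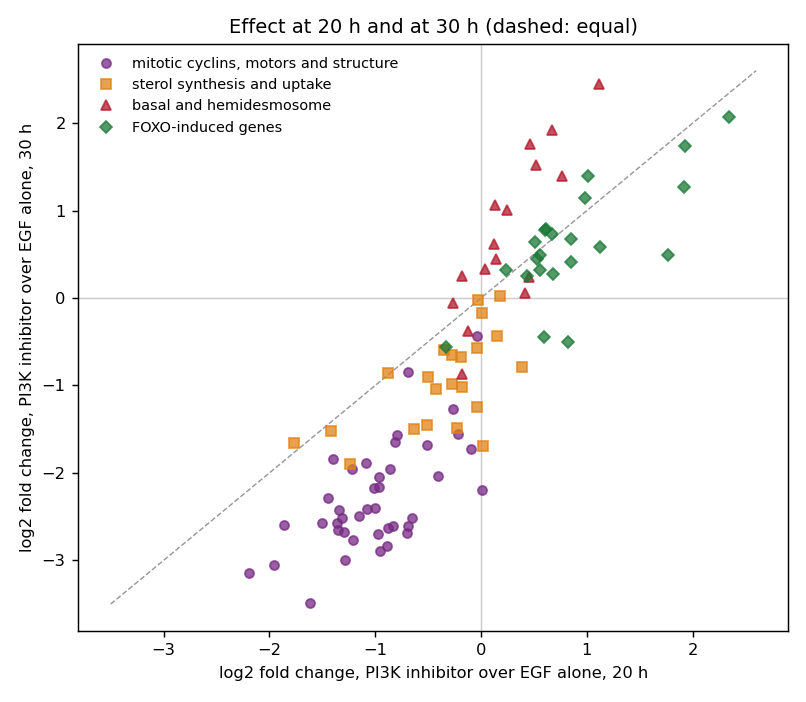
Log2 fold change of the PI3K inhibitor over EGF alone at 20 h (horizontal) and at 30 h (vertical) for the members of 4 lists, 1 point per gene; the dashed line marks equal effects. Mitotic genes (medians -0.97 at 20 h and -2.42 at 30 h) lie below the line, basal and hemidesmosome genes mostly above it, and FOXO-induced genes on both sides.

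Cells with the PI3K inhibitor were also compared directly with the 962 cells that received the MEK inhibitor over the same hours. The test called 4632 of 11147 genes (41.6%), 2266 higher (20.3%) and 2366 lower (21.2%) with the PI3K inhibitor. Without the replicate block it called 2703. Of 15 ERK output genes 13 were higher with the PI3K inhibitor and 1 lower, with a median of 2.63. DUSP6 stood at 44.3 and 41.1 CPM with the PI3K inhibitor and at 2.01 and 2.32 CPM with the MEK inhibitor (4.23 ± 0.21, adjusted p = 7.04e-23). EGR1, with 70.1 and 76.4 CPM against 7.28 and 5.44 CPM (3.59 ± 0.17), RGCC (4.55 ± 0.30), FAM110C (3.71 ± 0.27) and ANGPTL4, a secreted lipase inhibitor gene (3.61 ± 0.18), were the other 4 largest rises at 20 CPM or more in either group. CCND1 was higher with the PI3K inhibitor, at 105 and 117 CPM against 31.1 and 25.1 CPM (2.04 ± 0.13, adjusted p = 1.34e-19). Of 25 ribosome biogenesis genes 17 were higher with the PI3K inhibitor and none lower. The MEK inhibitor had its own comparison with the same EGF-alone libraries, which called 4216 genes (37.8%), 18.9% higher and 19.0% lower. In it 24 of the 25 ribosome biogenesis genes and 13 of the 15 ERK output genes were lower, against 18 and 1 in the comparison of the PI3K inhibitor with EGF alone. Of the 41 mitotic structure genes it called 10 higher and 2 lower, and of the 22 FOXO-induced genes 15 higher and none lower.

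On the other side, all 10 mitotic kinases and all 41 mitotic structure genes were lower with the PI3K inhibitor, with medians of -2.47 and -2.58. Phase shares differed here too. With the MEK inhibitor 64.8% and 33.6% of thinned cells were called G1 and 33.0% and 65.7% G2/M. With the PI3K inhibitor 85.3% and 73.6% were called G1 and 10.6% and 22.2% G2/M. In this comparison, too, a change in the number of cells in a phase and a change per cell cannot be told apart. CCNB1 stood at 30.1 and 62.8 CPM with the PI3K inhibitor and at 208 and 473 CPM with the MEK inhibitor (-2.85 ± 0.12). Of 17 licensing genes, by contrast, 4 were lower and 1 higher. Sterol genes were lower in 20 of 22 cases, HMGCS1 with 15.4 and 23.6 CPM against 55.7 and 91.1 CPM (-1.91 ± 0.13). PIF1, a DNA helicase gene of dividing cells, had 2 and 1 UMIs with the PI3K inhibitor and 71 and 232 UMIs with the MEK inhibitor, a ratio of 0.0123 (exact 95% interval 0.00252 to 0.0362, counting error only). The next largest falls were in SERPINB13, a keratinocyte protease inhibitor gene (-5.03 ± 0.22), NEURL1B (-4.55 ± 0.30), the antisense transcript IGFL2-AS1 (-4.52 ± 0.21) and LOX, which crosslinks collagen (-4.38 ± 0.27). SERPINB13 and LOX stood at 1.74 and 3.90 CPM and 0.995 and 1.95 CPM with the PI3K inhibitor, against 88.1 and 104 CPM and 22.3 and 40.8 CPM with the MEK inhibitor. Nothing says whether strand was used in the counting, so reads of the antisense IGFL2-AS1 and of its partner cannot be told apart. FOXO-induced genes were lower with the PI3K inhibitor in 12 of 22 cases and higher in 5; TXNIP was higher (1.49 ± 0.11). CDKN1C was 3.17 lower on the log2 scale, at 23.6 and 20.7 CPM against 184 and 207 CPM. Basal and hemidesmosome genes were higher in 9 of 16 cases and lower in 3, LAMB3 at 558 and 594 CPM against 62.5 and 52.9 CPM (3.35 ± 0.11).

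**Figure D5:**
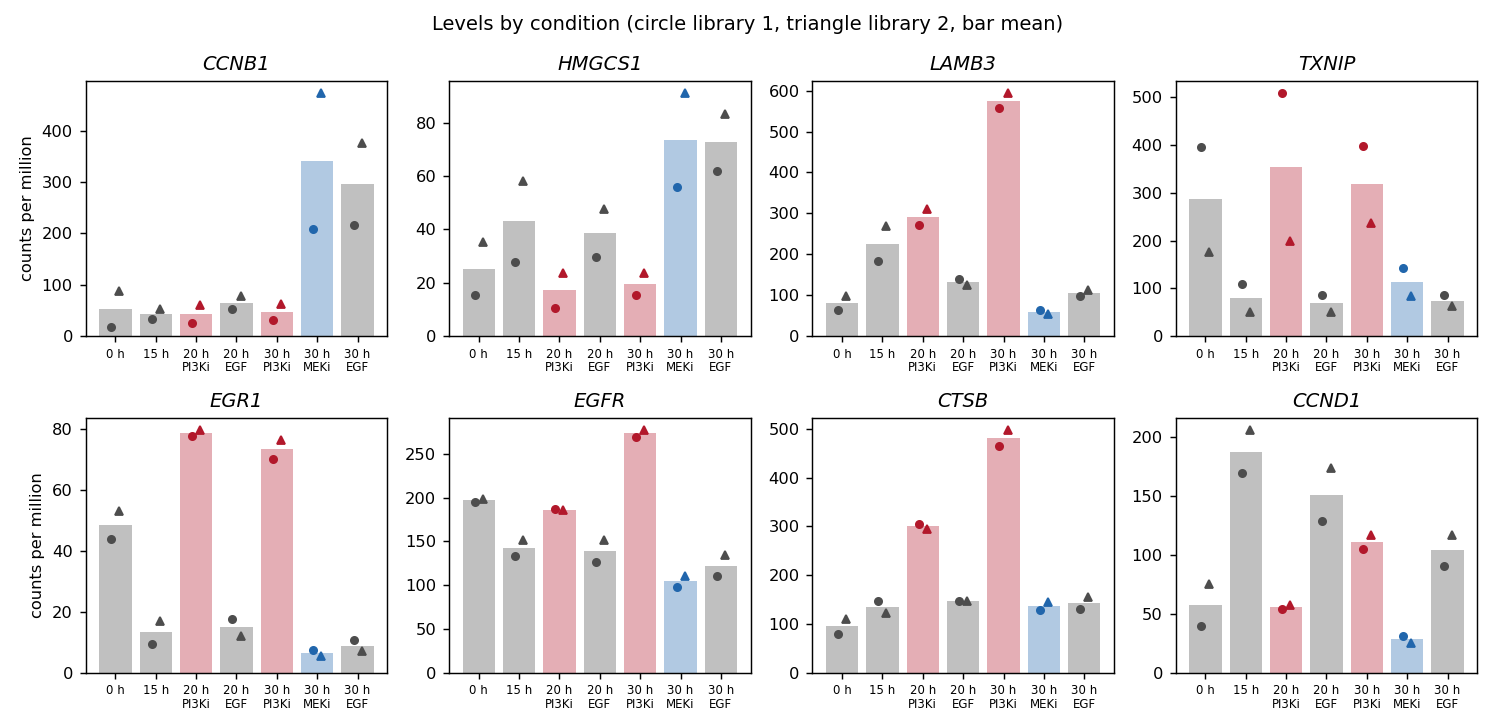
Levels in CPM (vertical axes start at 0) of 8 genes in unstimulated cells (0 h), after 15 h of EGF, and at 20 h and 30 h with the PI3K inhibitor (red), with the MEK inhibitor (blue, 30 h) or in EGF alone (grey); bars are means, circles library 1 and triangles library 2. At 30 h CCNB1 lies at 30.1 and 62.8 CPM with the PI3K inhibitor and at 216 and 375 CPM in EGF alone, while LAMB3, EGR1, EGFR and CTSB are highest or near highest with the PI3K inhibitor.

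Levels across the time course placed these genes further, as a description. EGR1 stood at 43.9 and 53 CPM at 0 h, 9.33 and 17 CPM at 15 h, 77.6 and 79.7 CPM with the inhibitor at 20 h and 70.1 and 76.4 CPM with it at 30 h. Its level with the inhibitor thus exceeded that of unstimulated cells. TXNIP stood at 396 and 177 CPM at 0 h, 109.6 and 51.1 CPM at 15 h and 399 and 238 CPM with the inhibitor at 30 h, so that 0 h and the inhibitor overlapped. LAMB3 stood at 64.1 and 97.2 CPM at 0 h and 558 and 594 CPM with the inhibitor at 30 h, where the groups were apart. HMGCS1 stood at 15.2 and 35.3 CPM at 0 h, 27.8 and 58.2 CPM at 15 h and 15.4 and 23.6 CPM with the inhibitor at 30 h. The 0 h and 15 h sums of library 2 rest on 29 and 64 cells.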

How the data were processed

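Unique molecular identifier (UMI) counts per gene and cell were deposited by the authors for 2 libraries, with a sample tag call per barcode and a table naming each tag's condition. The submitters' processing notes name Cell Ranger 3.0.2, Seurat and GRCh38; no source names the annotation release, the use of strand or the doublet method. The tag calls mark 56.1% and 40.2% of barcodes as doublets, which the deposited count tables do not hold; doublets within 1 tag are not marked. The count tables hold cells with at least 1502 genes, at most 4496 and 4492 genes in the 2 libraries, and under 10% mitochondrial UMIs. At 30 h the median was 2674.5 and 2876 genes per cell with the inhibitor and 3490 and 3766.5 in EGF alone. Whether the upper limit removed more cells from 1 group was not tested.

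Counts were summed per library and condition (16 sums), since cells are not replicates. All 16 were fitted with edgeR 4.0.16 (R 4.3.3; filterByExpr, TMM, quasi-likelihood F test, library as block; 11147 genes; 7 residual degrees of freedom; Benjamini-Hochberg over all genes, threshold 0.05). The 8 conditions of a replicate were 1 pooled library, so the block pairs them: over 4710 genes the deviations of same-library sums from their condition means correlated with a median r of 0.588 (0.281 to 0.677 over 28 pairs of conditions). The SE is the fold change divided by the root of F. CPM use TMM-scaled library sizes. Phases were called with scanpy 1.11.5 and Seurat's gene lists after thinning to 6500 UMIs (449 of 4837 cells were shallower and left out). Of 535 list genes in 31 lists, 21 had no symbol in the tables. Outside the lists of mammary epithelial markers and markers of other cell types, 481 distinct genes were tested. The steps were tested on simulated counts that held no library effect. There 23.9% of changes of 0.5 on the log2 scale and 78.5% of changes of 1 were recovered. A gene that did not pass may therefore still have changed. Alternatives were no block, other scalings and filters, DESeq2 1.42.0, thinned cells, no cells of highest depth, and each library alone. Genes were named by rule: in the 30 h comparison the 10 largest rises and falls at 20 CPM or more with the same sign in both libraries, 5 each way in the other comparisons, up to 4 called members per list, and CCND1, CDKN1A, CDKN1B, CDKN1C, MYC, FOXO1 and EGR1; other list members are given as counts or chosen after their values were seen. The members and lists were chosen with earlier results of these data known.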

Additional observations from a re-analysis of the deposited data

Results flagged for a closer look

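The effect of the PI3K inhibitor differed between 30 h and 20 h, by the test of the difference itself (edgeR, adjusted p under 0.05), in 630 genes, which is 5.65% of those tested. Among the genes named for it the difference of the log2 effects, 30 h minus 20 h, was 1.87 for KRT16, 1.59 for KLC3, 1.51 for FADS3, 1.5 for CCND1 and 1.5 for RBM12. It was -2.24 for HMGN5, -2.10 for NEK2, -1.99 for CCNB1, -1.98 for NMU and -1.95 for DLGAP5. All 10 had the same sign in both libraries, but the rule by which they were named required this. In EGF alone 25.1% and 8.0% of cells were called G1 at 30 h, and 39.5% and 28.1% at 20 h; the part of phase shares in these differences was not tested.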

How the results depend on the processing

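Calls depended on the library block. Without the replicate block, 2384 genes were called at 30 h (1106 higher, 1278 lower) in place of 4428, 2703 against the MEK inhibitor (1288 higher, 1415 lower), 278 in cells called G1 (141 higher, 137 lower), and 6 for 30 h minus 20 h (5 higher, 1 lower). On thinned cells 2951 genes were called at 30 h (1461 higher) and 289 for the difference between times (119 higher, 170 lower). Without the cells of highest depth that difference was called for 375 genes (149 higher, 226 lower), and by DESeq2 for 418 (231 lower). Library totals in place of TMM shifted the median of all genes by -0.24 on the log2 scale and gave 1268 genes higher and 3688 lower at 30 h, and 591 lower for the difference between times. In cells called G1, 119 of 422 list members outside the cell type marker lists were called, against 336 of 481 in all cells. Leaving out a library, genes at 20 CPM or more past 1 on the log2 scale numbered 455 to 583 at 30 h (479 with both), 203 to 242 for the difference between times (157) and 585 to 654 against the MEK inhibitor (593). The difference in phase share ranged from 60.2 to 65.6 points for G1, -17.5 to -6.86 for S and -58.8 to -42.7 for G2/M.

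List medians changed sign in cells called G1 for lysosome (-0.13), mitochondrial (-0.18), squamous (-0.60), mesenchymal (-0.21), interferon (-0.49) and BCL2 family genes (0.23), mammary epithelial markers (-0.12) and markers of other cell types (-1.22, 1 gene tested). They did so on library totals for mitochondrial (-0.21), mesenchymal (-0.17) and interferon genes (-0.0593), and for markers of other cell types (-0.00429). Leaving out a library, medians ran from -0.0298 to 0.134 for mitochondrial, -0.104 to 0.211 for mesenchymal, -0.0921 to 0.155 for squamous, -0.361 to 0.0146 for p53, -0.0741 to 0.00211 for interferon and -0.0825 to 0.133 for BCL2 family genes. CCND1 changed sign on library totals (-0.14), and without replicate 2 IGFL2-AS1 against EGF alone (range -0.588 to 0.205) and MT-ND6 (-1.01 to 0.134). The cause was not tested. RLE scaling, no filter on low counts, and leaving out the 0 h and 15 h sums, chosen after seeing the data, moved no count of calls by over 1.5 times. The 56 and 26 EGF-alone cells limit the precision of the sums of cells called G1.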
